A study of Drosophila melanogaster with 2 samples.

Results

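The genes elav, brp, futsch, Rim and Appl are 5 neuronal genes of Drosophila melanogaster, and binding of the CG16779-eGFP fusion protein was described across them. They are 5 of 13968 annotated protein-coding genes and were chosen from neuronal genes for the peaks near their transcription start sites (TSSs) in these same lists, so the presence and height of those peaks is a description and not a finding. Each region was the gene body with 2 kb on either side, 209 kb in all. The data were peak lists from chromatin immunoprecipitation followed by sequencing in a single group: whole embryos, 8 to 24 hours old, of a transgenic strain with a CG16779-eGFP fusion. The chromatin was sonicated (200 to 800 bp) and recovered with an antibody against GFP, in 2 biological replicates per the labels. No second genotype, stage or treatment was available to compare with, and the control library named in the labels was not analysed here. The embryos were whole, so the cells in which a site was occupied are unknown, and the lists measure no expression. Read numbers are unknown.

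Neurons carry electrical signals along axons and pass them on at synapses, where vesicles fuse with the membrane at specialised sites called active zones. In the fly embryo, neurons are born, extend axons and begin to form synapses within the developmental window that was collected. elav encodes an RNA-binding protein of neurons that acts on alternative splicing and polyadenylation, and it is widely used as a marker of neurons. brp (Bruchpilot) and Rim encode scaffold proteins of the active zone: Bruchpilot builds the electron-dense T-bar, and Rim links vesicles and calcium channels to the release site. futsch encodes a large microtubule-associated protein of the MAP1B type in axons and synaptic terminals. Appl encodes the fly relative of the amyloid precursor protein, a transmembrane protein of neurons.

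Sequences around the summits, the highest points of the peaks, are shown for elav, Rim and Appl. The elav pair is shown because its windows differed in base composition and in GAGAG, and Rim and Appl because their summits lie within 50 bp of a TSS. The brp promoter summit, 14 bp from its TSS, does so too, but its sequence is not shown here. The sequences come from release 6 of the reference genome (dm6), are written 5′ to 3′ on the strand of the gene, and leave out untranslated regions. Both elav windows cover 50 bp on either side of the summit on the minus strand, in an intron (chrX:522584-522684) and upstream of the gene (chrX:523463-523563). The Rim window lies upstream of the gene on the minus strand (chr3R:17916579-17916639), and the Appl window lies in its first intron on the plus strand (chrX:530535-530598). Capitals mark GAGAG.
elav intron: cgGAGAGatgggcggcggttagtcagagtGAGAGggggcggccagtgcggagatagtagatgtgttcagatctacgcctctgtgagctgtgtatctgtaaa
elav upstream: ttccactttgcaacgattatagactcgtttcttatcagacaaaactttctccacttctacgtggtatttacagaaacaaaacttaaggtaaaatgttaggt
Rim upstream: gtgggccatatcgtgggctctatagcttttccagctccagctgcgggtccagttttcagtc
Appl intron: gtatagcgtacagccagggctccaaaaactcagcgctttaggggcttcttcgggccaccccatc

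elav (FBgn0260400, X, 509235 to 523226, minus strand, 13.99 kb) carried the strongest peaks of the 5 genes, as a pair on either side of one TSS. Peaks were taken from the conservative list, in which replicate 1 was set against replicate 2 and a peak had to reach an irreproducible discovery rate (IDR) of at most 0.01. It holds 2517 peaks, 2516 of them on the chromosome arms. A low IDR means that a peak ranks high, and reproducibly so, in both replicates. Signal is the authors' peak height on the peak caller's own scale. The first elav peak (X, 522574 to 522684) had its summit at 522634, in an intron, 592 bp downstream of the TSS at 523226. Its signal was 88.1 in replicate 1 and 113 in replicate 2, with a mean of 101 ± 17.8 (SD, n = 2), and it ranked 186 of 2516 by mean signal. The other elav peak (X, 523432 to 523542) had its summit at 523513, 287 bp upstream of the same TSS and 879 bp from the first. Its signal was 74.9 in replicate 1 and 105 in replicate 2, with a mean of 90.2 ± 21.6 (SD, n = 2) and rank 244. Replicate 2 was higher at both elav peaks, and the gap between the elav peaks was smaller than the gap between replicates at either of them. At both, each replicate alone was above the list's median mean signal of 42.9. The positions are not private to elav. The TSS is shared with the noncoding gene lncRNA:enrr, and both summits also lie in an intron of arg, the arginase gene on the opposite strand, so the peaks cannot be assigned to one of these genes from position alone.

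brp (FBgn0259246, 2R, 9503765 to 9541565, plus strand, 37.8 kb) had a peak on its most upstream TSS and another beyond its 3′ end. The promoter peak (2R, 9503634 to 9503923) had its summit at 9503779, 14 bp downstream of the TSS in the 5′ UTR. Its signal was 96.2 in replicate 1 and 43.0 in replicate 2, a mean of 69.6 ± 37.6 (SD, n = 2), and it ranked 449. Replicate 1 was thus 2.24 times replicate 2, a log2 ratio of replicate 2 over replicate 1 of -1.16. Of the 2516 peaks, 12 (0.477%) had replicates at least this far apart in either direction. In replicate 1 the peak stood well above the list median, and in replicate 2 it stood at it. The 3′ peak (2R, 9542398 to 9542687) had its summit at 9542543, 978 bp past the end of brp and inside the 3′ UTR of CG1888. Its signal was 33.2 in replicate 1 and 51.0 in replicate 2, a mean of 42.1 ± 12.6 (SD, n = 2), with rank 1304. The brp peaks therefore differed in opposite directions between the replicates.

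Rim (FBgn0053547, 3R, 17872748 to 17916578, minus strand, 43.8 kb) had 1 peak (3R, 17916444 to 17916733), at its single annotated TSS. The summit at 17916589 lay 11 bp upstream, the shortest distance among the 7 summits. The signal was 48.5 in replicate 1 and 29.7 in replicate 2, with a mean of 39.1 ± 13.3 (SD, n = 2) and rank 1575. Replicate 1 was above the list median of 42.9 and replicate 2 below it.

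futsch (FBgn0259108, X, 1409069 to 1453686, plus strand, 44.6 kb) had 1 peak (X, 1411700 to 1411989), at an internal TSS and not at the most upstream one. The summit at 1411845 lay 119 bp downstream of the TSS at 1411726, in the 5′ UTR of the transcript that starts there, and 2776 bp into the gene. The signal was 66.5 in replicate 1 and 38.1 in replicate 2, with a mean of 52.3 ± 20.1 (SD, n = 2) and rank 836. The gap between the replicates was 1.75-fold, and 5.41% of the peaks in the list had replicates as far apart.

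Appl (FBgn0000108, X, 530501 to 579044, plus strand, 48.5 kb), the longest of the 5 genes, had 1 peak (X, 530403 to 530692) at its most upstream TSS. The summit at 530548 lay 47 bp downstream of the TSS, just inside the first intron, and 257 bp from the TSS of CG4293. The peak therefore counts for both genes. The signal was 36.2 in replicate 1 and 41.7 in replicate 2, with a mean of 38.9 ± 3.88 (SD, n = 2) and rank 1584. Of the 7 peaks it had the lowest mean and the most even replicates, and 61.1% of the list had replicates at least as far apart.

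**Figure D1:**
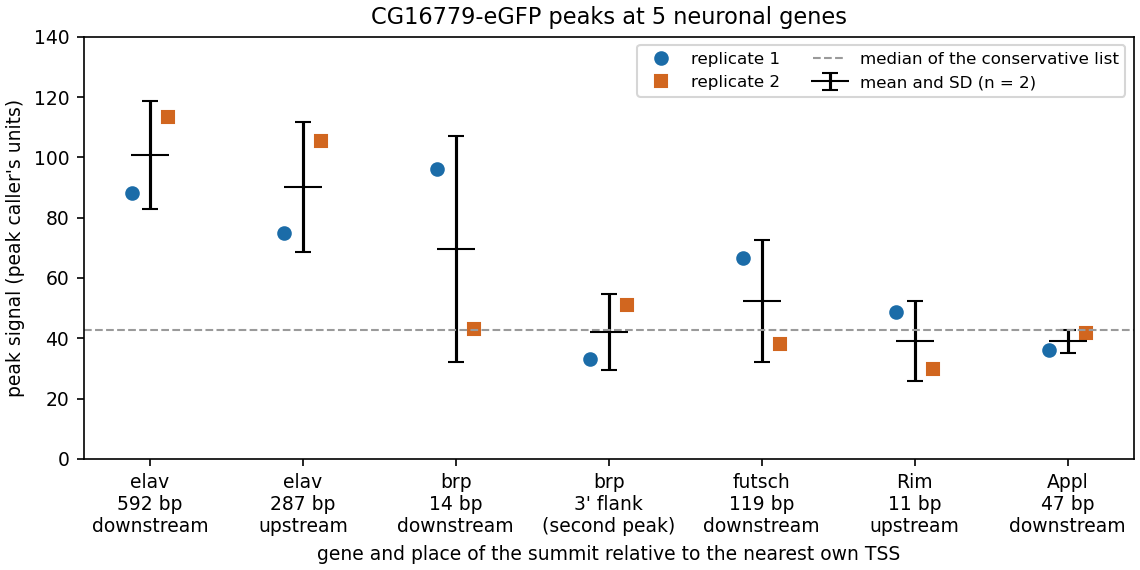
Signal of the 7 conservative peaks at the 5 genes in the peak caller's units, by gene and place of the summit, with circles for replicate 1, squares for replicate 2, and bars for the mean and SD (n = 2). Replicate 1 was higher at the brp promoter, futsch and Rim, replicate 2 at the other 4 peaks, and the dashed line marks the median of the list, 42.9.

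By mean signal the strongest peaks followed the order elav (101), brp (69.6), futsch (52.3), Rim (39.1) and Appl (38.9). The 2 replicates did not give one order. In replicate 1 brp (96.2) was above elav (88.1), while in replicate 2 Appl (41.7) was above futsch (38.1) and Rim (29.7) and close to brp (43.0). The replicate ranges of brp and elav overlapped, as did those of futsch, Rim and Appl, so these neighbours did not differ beyond their spread. elav stood apart from futsch, Rim and Appl, with its lower replicate (88.1) above the higher replicate of each of them (66.5, 48.5 and 41.7). Over the list, the median log2 ratio of replicate 2 over replicate 1 was 0.02, with an SD of 0.41. The ratio was 0.36 and 0.49 at the elav peaks, 0.62 at the brp 3′ peak and 0.20 at Appl, and -1.16, -0.80 and -0.71 at the promoter peaks of brp, futsch and Rim. These 3 promoters lay more than 1 SD from the median towards replicate 1, and the upstream elav peak and the brp 3′ peak more than 1 SD from it towards replicate 2.

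**Figure D2:**
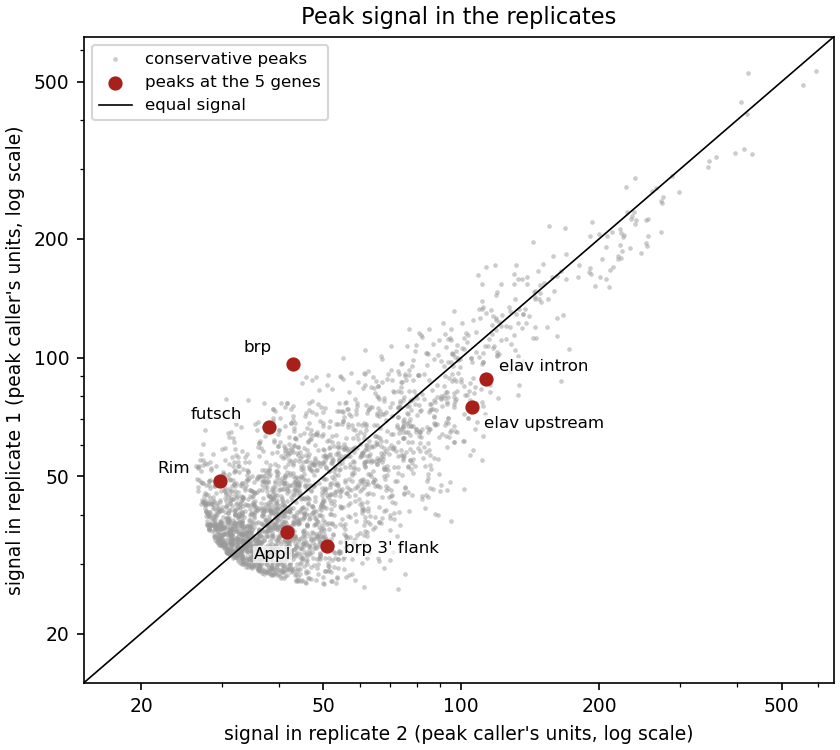
Signal in replicate 1 against signal in replicate 2 for the conservative peaks, both axes on a log scale in the peak caller's units, with the 7 peaks at the 5 genes in red and the line of equal signal in black. The brp promoter lies at the edge of the cloud on the replicate 1 side (96.2 against 43.0 in replicate 2), and the elav pair lies on the replicate 2 side.

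Evidence from each replicate alone was uneven across the 5 genes. Each replicate had an own list, thresholded at the same IDR of 0.01 within that replicate. Both elav peaks were in both own lists, with own IDRs of 0.000237 in replicate 1 and 5.95e-05 in replicate 2 at the intron. The brp promoter and futsch were in the own list of replicate 1 only, with own IDRs of 0.000162 and 0.00127 there, against 0.0141 and 0.0251 in replicate 2. The brp 3′ peak was in the own list of replicate 2 only, with an own IDR of 0.00762 there and 0.192 in replicate 1. Rim (own IDRs 0.0129 in replicate 1 and 0.192 in replicate 2) and Appl (0.128 and 0.0168 in the same order) were in neither. Neither Rim nor Appl thus passed within a replicate, only between the replicates. Much of the list was alike in this: 1151 of its 2516 peaks were in neither own list, 588 in 1 and 777 in both. All 7 peaks were also in the list of 2705 peaks made from pooled reads.

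The counts that chose the genes stand beside the same counts over all protein-coding genes, and nothing is read from the difference. A conservative summit lay within 500 bp of an own TSS in 5 of the 5 genes and in 11.3% of all protein-coding genes. With the pooled list the count was 5 of 5, beside 11.9% of all. The own list of replicate 1 gave 3 of 5 (elav, brp and futsch), beside 6.47%, and that of replicate 2 gave 1 of 5 (elav), beside 6.62%. For a summit anywhere in the gene body or within 2 kb, the conservative list gave 5 of 5 beside 23.9%, the pooled list 5 of 5 beside 24.7%, the own list of replicate 1 gave 3 of 5 beside 13.3%, and that of replicate 2 gave 2 of 5 (elav and brp) beside 13.7%. The 5 genes are long: their spans of 13.99 to 48.5 kb compare with a median of 2.16 kb over all protein-coding genes, and they have 1 to 3 TSSs, against a median of 1. Among the 1985 protein-coding genes of 10 kb or more, a set chosen after the data were seen, 43.5% had a conservative summit in the gene body or within 2 kb, and 21.1% had one within 500 bp of an own TSS. Per 100 kb, the regions of the 5 genes held 3.35 conservative summits, and the chromosome arms held 1.83.

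The paired peaks at elav were set beside all genes in the same way, a comparison also chosen after they were seen. Of all protein-coding genes, 1.17% (164 genes) had 2 or more conservative summits within 1 kb of one own TSS. elav was the only one of the 5 among them. Both elav peaks were also narrow, at 111 bp each, whereas the other 5 peaks of these genes, and 2313 of the 2516 in the list, had its largest width of 290 bp.

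Below the IDR threshold the same regions held many weaker peaks. The ranked list made from both replicates, which has no IDR threshold, held 228 peaks there, the 7 conservative peaks among them. Of the 228, 21 were at elav, 60 at brp, 58 at futsch, 49 at Rim and 40 at Appl. This came to 11.7 per 10 kb at elav, 14.4 at brp, 11.9 at futsch, 10.2 at Rim and 7.61 at Appl, beside 9.85 over the chromosome arms. The strongest peak that missed the threshold at elav lay in a coding exon (summit X, 519085), with 33.4 in replicate 1 and 21.2 in replicate 2 and an IDR of 0.0577. At brp it lay 866 bp upstream of the gene (summit 9502899), with 36.9 and 17.3 in the same order and an IDR of 0.162. At Rim it lay in a coding exon, 30173 bp downstream of the TSS (summit 17886405), with 35.1 in replicate 1 and 23.2 in replicate 2 and an IDR of 0.0327, the closest of these 5 to the threshold. At futsch (summit 1410453, in an intron) it had 21.4 in replicate 1 and 23.9 in replicate 2, and at Appl (summit 531018, in an intron) it had 28.5 and 17.3. Mean signals of these 5 peaks were 22.7 to 29.2. The weakest conservative peak of the 5 genes (Appl) averaged 38.9.

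**Figure D3:**
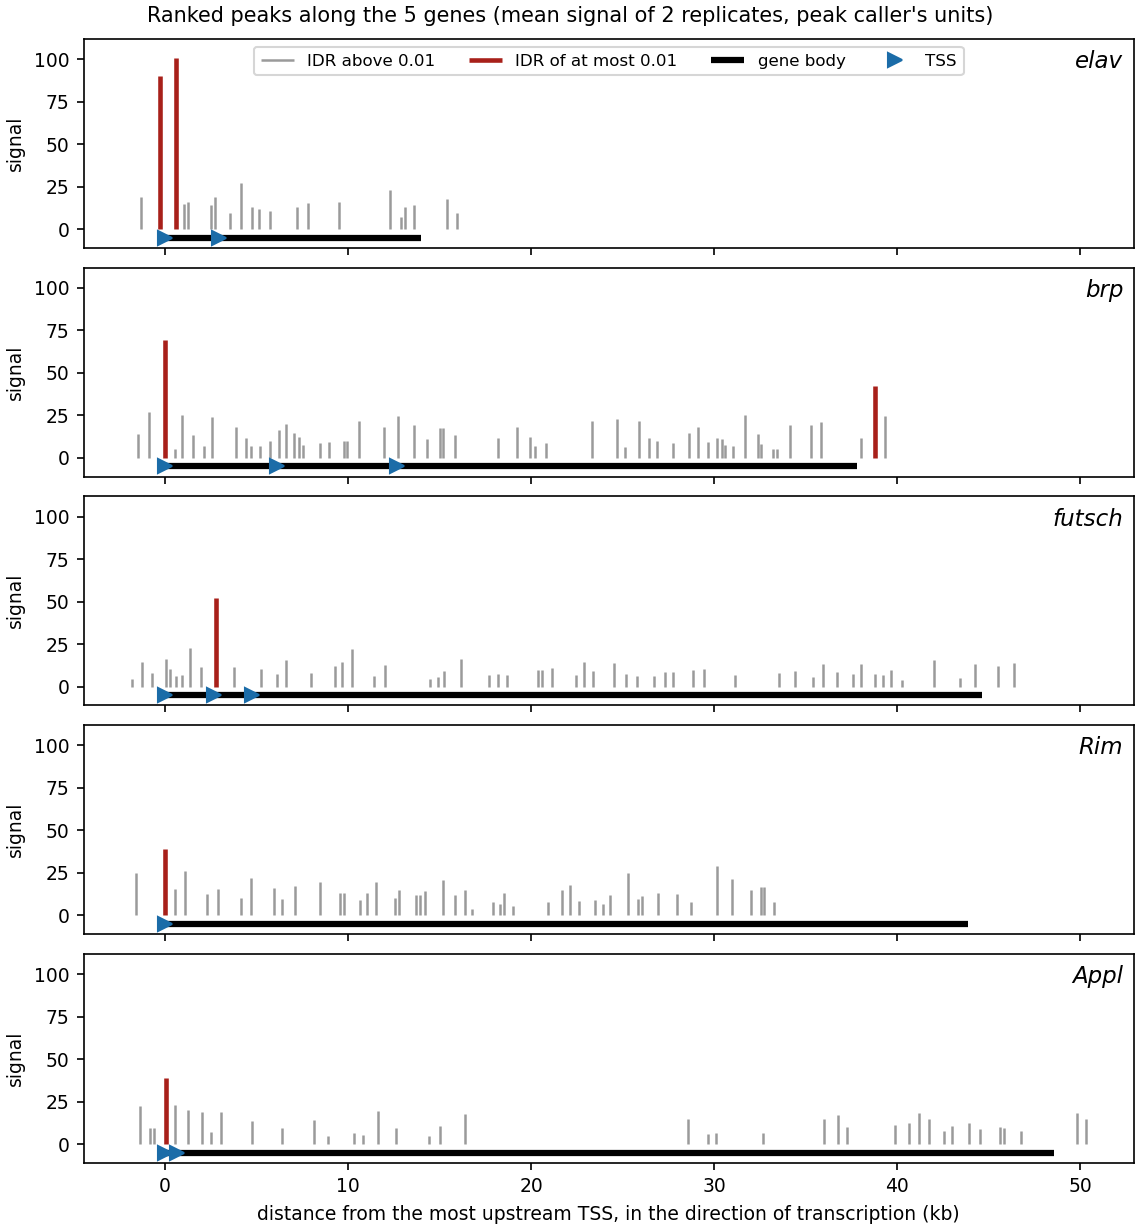
Mean signal of the 2 replicates for each ranked peak, drawn as a vertical line, against distance in kb from the most upstream TSS in the direction of transcription, with gene bodies as black bars, TSSs as triangles and peaks that passed an IDR of 0.01 in red. Conservative peaks sit at the 5′ end of each gene and once past the 3′ end of brp, and the rest of each gene carries a low row of peaks with a wide gap in Rim and in Appl.

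Ranked peaks were missing from long stretches of Rim and Appl. No ranked summit lay between 33.3 and 49.1 kb downstream of the Rim TSS, a gap of 15.8 kb that takes in the 3′ end of the gene and what follows it. Within Appl, none lay between 16.4 and 28.6 kb, a gap of 12.2 kb. Of 135468 gaps between neighbouring ranked summits on the arms, 0.523% were as wide as that of Rim and 0.715% as wide as that of Appl. Each was picked as the widest gap of its gene. The share of single gaps therefore does not tell how often a long gene holds a gap so wide, which was not counted. The widest gaps at elav, brp and futsch were 2.77, 2.53 and 2.45 kb.

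Of the 11 annotated TSSs of the 5 genes, 5 had a conservative peak within 500 bp, 1 in each gene. A ranked peak of any height lay within 500 bp of 10 of the 11, beside 82.0% of all 19630 protein-coding TSSs. The bound TSS is the start of most annotated transcripts in elav (3 of 4), brp (12 of 14), Rim (14 of 14) and Appl (5 of 6), while in futsch each of the 3 TSSs starts 1 transcript. At the other TSSs signal was near that of a typical TSS. The second TSS of elav (520285) had 22.1 in replicate 1 and 15.7 in replicate 2. The second TSS of brp (9509852) had 14.2 and 18.9 in the same order, and the TSS at 9516451 had 25.02 and 24.7. The most upstream TSS of futsch (1409069) had 19.4 in replicate 1 and 12.6 in replicate 2, and its TSS at 1413801 had no ranked peak. The second TSS of Appl (531170) had 28.5 in replicate 1 and 17.3 in replicate 2. The means at these 5 TSSs, 15.99 to 24.8, lay within the quartiles over the 16093 protein-coding TSSs with a ranked peak (13.2 to 25.4, median 18.2). Within each of elav, brp, futsch and Appl, the bound TSS was above every other TSS of the gene in both replicates.

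**Figure D4:**
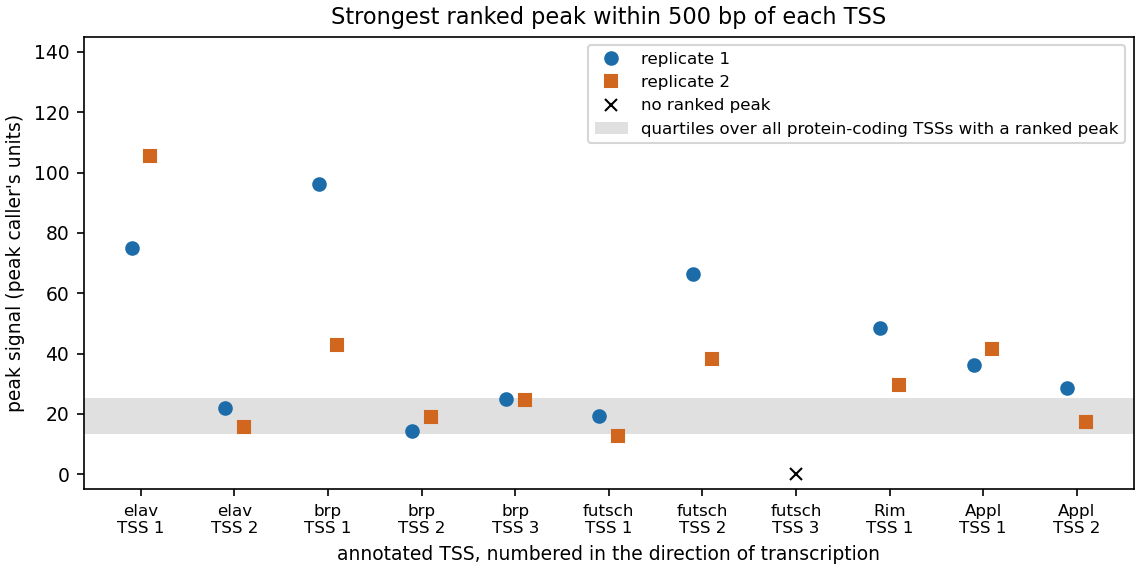
Signal of the strongest ranked peak within 500 bp of each of the 11 TSSs, numbered in the direction of transcription, with circles for replicate 1, squares for replicate 2, a cross where there was no ranked peak, and a grey band for the quartiles over all protein-coding TSSs with one (13.2 to 25.4). Each gene with several TSSs had 1 above the band in both replicates, and in futsch that was TSS 2.

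Base composition differed between the windows of 101 bp centred on the summits. The share of G and C was 55.4% in the elav intron, 56.4% and 57.4% at the brp promoter and 3′ peak, 58.4% at both futsch and Rim, and 59.4% at Appl, all above the median over the list of 44.6%. The window upstream of elav held 33.7%, below that median. Over the list the range was wide, with 25.7% and 62.4% as the 5th and 95th percentiles. Motifs were searched on both strands. GAGAG, the core letters bound by GAGA factor, occurred 2 times in the elav intron, in the sequence given above, and in no other window of the 5 genes; 15.1% of all 2516 windows held it. CANNTG, the E-box bound by basic helix-loop-helix proteins, occurred 2 times at the brp promoter and 1 time at Rim, and 38.3% of all windows held it. None of the 7 windows held TATCGATA (1.59% of all windows), TATAAA (12.2%), AAAAAAAA (4.29%), CACACA (9.70%), Motif 1 (0.318%) or Motif 7 (2.78%). Motif 1 and Motif 7 are core promoter motifs of the fly. A missing match says only that these letters are absent from the window.

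Other neuronal genes were taken from 9 lists by role, 173 genes in all with the 5 genes among them. The lists were written with earlier results of these data known. Their shares, here and in the paragraphs below, are therefore a description, also without the 5 genes. Of the 173, 45 had a conservative summit within 500 bp of an own TSS (26.0%), and without the 5 genes the count was 40 of 168 (23.8%), beside 11.3% of all protein-coding genes. The listed genes are long, with a median span of 21.5 kb. Of the 116 genes of 10 kb or more outside the 5, 33 had such a summit (28.4%), beside 21.1% of all genes of that length. Counts in the own list of replicate 1 (25 of 173) and replicate 2 (19 of 173) were lower. The shares over all protein-coding genes were lower there too, at 6.47% and 6.62%. The pooled list gave 46, not all of them among the 45, beside 11.9% of all. Whether neuronal genes differ from others of equal length and TSS number was not tested here.

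The list named active zone and presynaptic scaffold, which includes brp and Rim, held the highest share, 11 of 17 genes. The name is loose, since not all of its genes encode such scaffolds, among them Nlg1, Nlg2, wnd, Srpk79D and hiw. The share is that of the list as written. Without brp and Rim it was 9 of 15, beside 11.3% of all protein-coding genes. Fife, an active zone scaffold related to Rim, had 81.3 in replicate 1 and 64.9 in replicate 2 at its TSS (mean 73.1 ± 11.6, SD, n = 2). It was below brp in replicate 1 and above it in replicate 2, and above Rim in both. dlg1, for a scaffold of the membrane-associated guanylate kinase family, had 65.7 and 58.6 in the same order, and Nrx-1, the fly neurexin, had 50.1 and 63.4. No conservative summit lay within 500 bp of a TSS of Liprin-alpha, Nlg1, Srpk79D, cac, hiw or unc-13. Of the 16 genes of this list that span 10 kb or more, 11 had a summit, beside 21.1% of all genes of that length. With the own list of replicate 1 the count was 6 of 17, beside 6.47% of all protein-coding genes. With that of replicate 2 it was 5, beside 6.62%.

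The axonal cytoskeleton and transport list, which includes futsch, had 5 of 20 genes with a summit, beside 11.3% of all protein-coding genes. Of its genes of 10 kb or more, 4 of 15 had one, beside 21.1% of all genes of that length. The spectraplakin gene shot averaged 86.4 ± 1.72 and the ankyrin gene Ank2 53.2 ± 6.57 (SD, n = 2 each), beside 52.3 for futsch. Klc, for kinesin light chain, averaged 51.6 ± 11.9 (SD, n = 2) at a peak it shares with CG10984. In the own lists the counts were 5 (replicate 1) and 3 (replicate 2), beside 6.47% and 6.62% of all protein-coding genes in the same order. The Appl pathway list had 4 of 13, and 2 of its 5 genes of 10 kb or more. It had 6 in the pooled list, beside 11.9% of all protein-coding genes, and 1 in the own list of either replicate. The 4 genes were Abl, a tyrosine kinase gene, at 49.0 ± 17.8, the adaptor gene X11L at 41.4 ± 3.74, Appl itself, and Aplip1, for a kinesin adaptor, at 34.6 ± 7.03 (SD, n = 2 each). The list of the elav family and neuronal RNA regulation had 4 of 12, in which elav (90.2) stood far above brat (35.5 ± 3.89), Fmr1 (34.7 ± 0.196) and ps (34.7 ± 0.392; SD, n = 2 each). Of the 10 genes of this list that span 10 kb or more, 3 had a summit. In the own lists the counts were 2 (replicate 1) and 1 (replicate 2, elav). Of the 4 conservative peaks named here, only that of elav was in either own list. fne, an elav paralogue, had a summit at its TSS in the pooled list only, with 37.1 in replicate 1 and 24.3 in replicate 2.

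Among lists with none of the 5 genes, voltage-gated ion channels had 7 of 20 (4 in the own list of replicate 1 and 5 in that of replicate 2). The highest was NaCP60E at 128 ± 7.86 (SD, n = 2), a voltage-gated channel gene whose peak lies also at the TSS of the ribosomal protein gene RpL41. The potassium channel genes slo, Shab and eag averaged 60.4 ± 12.3, 60.1 ± 19.2 and 42.9 ± 3.42 (SD, n = 2 each), the last at a peak shared with CG9030. The list named neuronal transcription factors had 5 of 17 (3 in the own list of replicate 1 and 1 in that of replicate 2). Its highest by mean signal were chinmo (52.8), lola (50.3, at a peak shared with asRNA:CR45135), apt (40.8) and ttk (39.3). The name is loose, since apt and ttk do not act in neurons alone. Axon guidance and adhesion had 7 of 28 (3 in either own list), with trio highest (65.4 ± 12.4, SD, n = 2), then drl (51.5), Dscam1 (46.8) and robo2 (40.3). Over all protein-coding genes the shares were 11.3% in the conservative list, and 6.47% and 6.62% in the own lists of replicates 1 and 2. Among genes of 10 kb or more the channels had 7 of 18, the transcription factors 5 of 12 and axon guidance 6 of 23, beside 21.1% of all. The synaptic vesicle cycle had 1 of 22 (AP-2alpha, at a peak shared with ebi, 40.8 ± 8.72), and transmitter synthesis, transport and receptors had 1 of 25 (Ddc, dopa decarboxylase, 34.9 ± 9.48; SD, n = 2 each). Among the genes of these lists that span 10 kb or more, 0 of 9 and 0 of 14 had a summit, beside 21.1% of all genes of that length. The pooled list gave 2 of 22 and 2 of 25, beside 11.9% of all protein-coding genes.

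**Figure D5:**
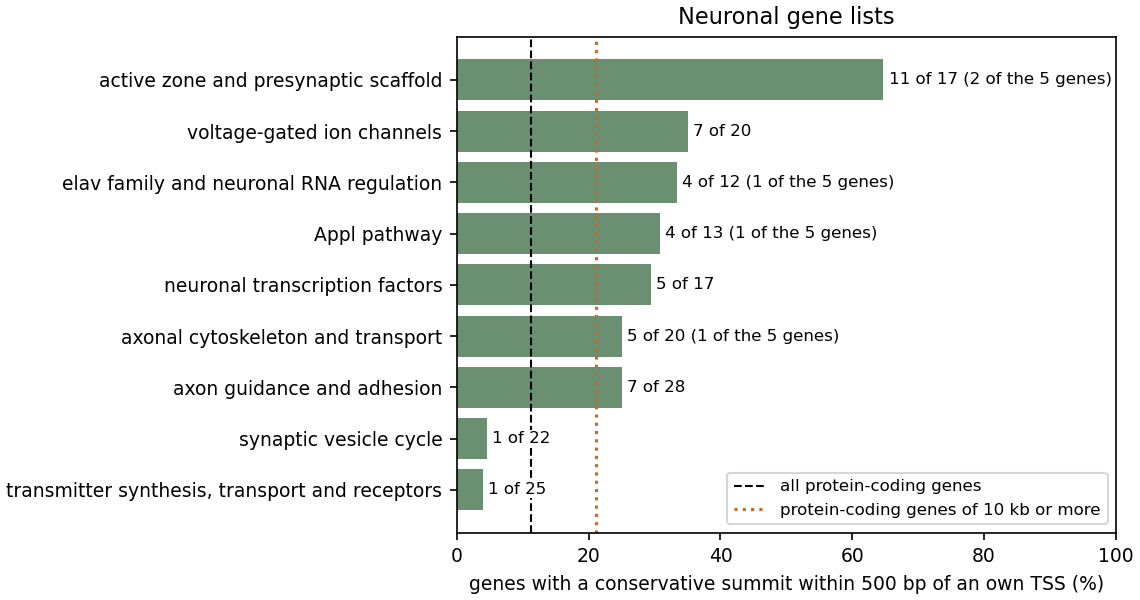
Share (%) of the genes in each of 9 neuronal lists with a conservative summit within 500 bp of an own TSS, with counts beside the bars, a dashed line for all protein-coding genes (11.3%) and a dotted line for those of 10 kb or more (21.1%). The active zone and presynaptic scaffold list, not all of whose genes encode such scaffolds, reached 64.7%. The vesicle cycle (4.55%) and transmitter (4%) lists lay below both lines.

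Ordered by mean signal at the TSS among the 45 listed genes with a summit, elav was 2nd, brp 5th, futsch 14th, Rim 32nd and Appl 33rd. These places depended on the replicate: in replicate 1 alone elav took place 5, brp 2, futsch 9, Rim 22 and Appl 36, and in replicate 2 alone elav took place 2, brp 23, futsch 32, Rim 41 and Appl 25. Just above Rim stood ttk (39.3 ± 4.27) and just below Appl the potassium channel gene Shaw, at a peak shared with lectin-24A (37.9 ± 9.93; SD, n = 2 each). Outside the conservative list, 7 listed genes had a summit at a TSS in the pooled list only. They were fne, Syt1, aph-1, Dab, Shal, Rdl and trn, with conservative IDRs of 0.0160 (Syt1) to 0.294 (trn). Other listed genes had one in the conservative list only. With the pooled list the count fell from 4 to 3 in the elav family list, from 7 to 6 in axon guidance and from 5 to 4 in neuronal transcription factors. Syt1, the vesicle calcium sensor, had 25.1 in replicate 1 and 43.4 in replicate 2.

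The genes most like each of the 5 in signal were sought over the 1583 genes with a summit at a TSS, as the distance in log2 signal over the 2 replicates. For elav these were CG44286 and CG8788, which share 1 peak (74.3 in replicate 1 and 106 in replicate 2). For brp they were Sfxn1-3 (89.4 and 45.9 in the same order) and Mctp (86.1 and 44.9). For futsch they were bchs (66.9 in replicate 1 and 37.1 in replicate 2) and ND-24 (69.0 and 38.8). For Rim they were sinu (49.1 in replicate 1 and 29.1 in replicate 2) and robo2 (49.9 and 30.7). For Appl they were CG4293, by the peak shared with it, and Hs3st-B (35.8 in replicate 1 and 41.9 in replicate 2). Distances were 0 to 0.17 in log2 units, and with 2 samples they describe only the height of the peaks.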

How the data were processed

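Peak lists were used as deposited by the authors, for 2 biological replicates of 1 group. The deposited signal values are those of the peak caller. Aligner, peak caller, versions, signal scale and background treatment: not given in the sources used here. The deposited −log10 of the irreproducible discovery rate (IDR) was used to filter; per the file headers and descriptions deposited with them, one set of lists came from replicate 1 against replicate 2, one from pooled reads and one from each replicate. Assembly dm6 is per the labels. Signal per replicate came from 2 unnamed columns of the ranked list. Exact matches to the own ranked lists settled which replicate each was (106479 and 107258 peaks, and 0 to the other replicate). Depth is unknown.

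Gene models were Ensembl release 115 and the sequence was the release 6 genome. Only summits on the chromosome arms were used. TSS distance was 500 bp, the flank 2 kb, the motif window 101 bp, and summits within 100 bp counted as the same. The counting steps were tested on simulated data. No statistical test was made, because the genes were chosen on these lists. Ranges and SDs cover 2 replicates. The 5 genes and the 9 lists were chosen with earlier results of these data known. Of 179 list symbols, 2 were unmatched, 3 matched through older names and 3 named a gene already in the list. Named were all thresholded peaks of the 5 genes, the strongest ranked peak below the threshold for each, up to 4 genes per list by mean signal with others at the same peak, the 2 genes most like each, and those just outside the choice. Analysis used python 3.11.15, numpy 2.4.6, pandas 2.3.3 and matplotlib 3.10.9. Alternatives were the pooled list, the own list of each replicate, an IDR of 0.005, peaks in both own lists, other flanks and TSS distances, and the merged signal.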

Additional observations from a re-analysis of the deposited data

How the results depend on the processing

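With the pooled list or an IDR of 0.005, all 5 genes kept a summit at a TSS and the 7 summits stood, while listed genes with one numbered 46 and 37. With 250 bp, 4 of the 5 genes remained (elav lies 287 bp away) and 40 listed genes; with 1000 bp, 5 and 53. Without either replicate, in the own list of the other, the 5 genes with a summit in the region fell to 2 to 3, those at a TSS to 1 to 3, the 7 summits to 3 to 4 and the 45 listed genes to 19 to 25. Requiring both own lists left 1 gene (elav) in the region and at a TSS, 2 summits and 12 listed genes. With no flank 4 summits in 4 genes remained, Rim being lost. A 5 kb flank gave 9 summits. The share over all protein-coding genes was not counted for an IDR of 0.005, both own lists, or the other flanks and TSS distances. Nothing about the 5 genes or the listed genes is therefore read from how those counts moved. The merged signal was 204 at elav, 139 at brp, 106 at futsch, 84.1 at Rim and 70.0 at Appl, the same in the pooled list, and kept the order. Without each replicate the signal was 88.1 to 113 at elav, 43.0 to 96.2 at brp, 38.1 to 66.5 at futsch, 29.7 to 48.5 at Rim and 36.2 to 41.7 at Appl. Over lists and settings, the count for a single list moved by over 1.5 times in 29 cases and by less in 34. The causes were not tested beyond what each setting's own construction shows. No paired analysis was possible because there was 1 group and no test. Depth and control signal are unknown, so low peaks cannot be told from background.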

Other observations

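Between 2 and 5 kb outside the 5 genes lay 2 further conservative summits. One, 2679 bp upstream of Rim (3R, 17919257), lay 575 bp from a TSS of cpo, which encodes an RNA-binding protein of the nervous system, with 33.1 in replicate 1 and 46.6 in replicate 2 (mean 39.9 ± 9.54, SD, n = 2). Its replicates thus differed in the opposite direction to those of the Rim peak. The other, 3471 bp past the end of brp (2R, 9545036), lay 1922 bp from the TSS of CG1888, with 51.3 in replicate 1 and 41.7 in replicate 2 (mean 46.5 ± 6.84, SD, n = 2).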
